A study of Mus musculus with 5 samples.

Results

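The genes of the collagen superfamily were taken from the retinal count table of a mouse study of form-deprivation myopia (FDM). Every row whose gene symbol consists of Col, a type number, the letter a and a chain number was a member. This gave 44 genes of the 33636 in the table, each with a single row. Retinal RNA of wild-type male C57BL/6J mice, a common inbred strain, was sequenced at P42, after 2 weeks in which a head-mounted translucent diffuser covered the right eye from P28. The diffuser blurs the retinal image, and young eyes deprived of form in this way turn myopic. The FDM group held 2 libraries from covered right eyes and the control group 3 libraries from the uncovered left eyes of the same animals, so every control had a fellow eye that wore a diffuser. The libraries are called FDM 1, FDM 3, Control 1, Control 2 and Control 3. Libraries with the same number were taken as the eyes of a single mouse. This pairs FDM 1 with Control 1 and FDM 3 with Control 3. By these numbers, the covered eye of the mouse behind Control 2 was not analysed here. The sample title numbers the second FDM library 2, while the column of the count table and the study's own tables number it 3, and this second number is used. The comparison asks whether collagen transcripts differed between form-deprived and control retinas, and whether fibrillar collagens differed from those of basement membranes.

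Collagens are secreted or membrane-bound proteins whose chains wind into triple helices, and each chain carries a glycine at regular intervals along the helix, separated by a pair of other residues. Fibrillar collagens assemble into long cable-like fibrils, while the type IV chains form the sheet-like networks of basement membranes, such as the inner limiting membrane of the retina, the walls of retinal vessels and Bruch's membrane under the retinal pigment epithelium (RPE). In the eye, collagens also make up the vitreous gel, the corneal stroma, Descemet's membrane and the sclera, the outer coat that is remodelled as myopic eyes grow. The neural retina holds little interstitial collagen outside its vessels and its inner limiting membrane.

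The libraries held 40599047 to 56534931 estimated counts, and collagen genes took 0.0860% to 0.0938% of them, or 36671 to 53030 counts. Levels are given in CPM, the counts per 1000000 counts of the library total scaled by the TMM factor, which ran from 0.984 to 1.01. A floor of 3 counts corresponded to 0.0526 to 0.0751 CPM, a limit for counting error only, and no collagen gene lay at or under it in any library. Markers of the retina (9 genes, including Gnat1, Pde6b and Nrl) summed to 17458 to 21810 CPM, with none at 0 in any library. Of these, 0 were called between the groups at an unadjusted p under 0.05 in edgeR, beside 1.61% of all genes tested. Markers of other tissues differed between libraries. All 12 RPE markers were higher in Control 2 and Control 3 than in each of the other 3 libraries, and their sums were 296 CPM in FDM 1 and 289 in FDM 3, against 303, 520 and 490 in Controls 1 to 3. Lens markers summed to 2187 CPM in FDM 3 and to 3.05 to 21.4 CPM elsewhere. All 10 of those found were highest in FDM 3 and called higher in FDM, beside 0.453% of all genes called higher. All 8 skeletal muscle markers were highest in Control 3, at 67.3 CPM summed against 10.2 to 11.7 elsewhere, and 0 of the 5 tested were called. Fibroblast and sclera markers summed to 65.0, 81.7, 74.1, 128 and 130 CPM for FDM 1, FDM 3 and Controls 1 to 3, with the defining marker Lum at 0 in FDM 1. In RNA of a whole tissue, fewer cells of a type and less RNA per cell cannot be told apart.

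The classes differ in how the glycine repeat is laid out, which is shown here for a member of each of 3 classes. In the coding sequences of the GENCODE M21 annotation, the codon for glycine is GGN, where N is any base, and a run was counted from 6 GGN codons each separated by a pair of other codons. The 11 fibrillar genes held 2 to 3 runs each, the longest of 216 to 344 triplets. The 6 type IV genes held 22 to 27 runs, the longest of 39 to 66 triplets, because short stretches without the repeat break up their helix. The network class, Col8a1, Col8a2 and Col10a1, held 8 runs each, the longest of 59 to 60 triplets. In the following stretches of 90 coding bases the glycine codons of the repeat are in capitals.
Col2a1, coding bases 601 to 690: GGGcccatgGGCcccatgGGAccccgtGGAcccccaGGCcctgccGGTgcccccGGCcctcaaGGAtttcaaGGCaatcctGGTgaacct
Col4a1, coding bases 4021 to 4110: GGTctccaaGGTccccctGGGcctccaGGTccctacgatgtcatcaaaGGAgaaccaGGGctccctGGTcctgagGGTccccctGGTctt
Col8a2, coding bases 943 to 1032: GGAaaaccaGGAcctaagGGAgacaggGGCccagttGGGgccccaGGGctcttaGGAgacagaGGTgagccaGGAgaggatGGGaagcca
The stretches of Col2a1 and Col8a2 hold 10 evenly spaced GGN codons, while that of Col4a1 holds 9, with an interruption where 4 codons beyond the usual pair stand between glycines.

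Per kilobase of exon, collagen levels spanned a wide range in the retina. The highest mean level over the 5 libraries was that of Col6a1, a chain of the beaded microfibrils, at 20.6 CPM per kb. It was followed by Col23a1, a transmembrane collagen, at 18.1, by Col9a1, a chain that decorates type II fibrils, at 12.6, and by Col2a1, the main fibrillar chain of cartilage and vitreous, at 11.8 CPM per kb. The ranges over libraries of Col6a1 and Col23a1 overlapped, as did those of Col9a1 and Col2a1, so the order within each pair is not set by these data, while Col23a1 and Col9a1 did not overlap. The next members were Col20a1 at 8.43, Col4a2 at 7.16, Col4a1 at 6.13, Col18a1 at 5.50, Col7a1 at 5.14 and Col9a2 at 4.75 CPM per kb. From Col2a1 down to Col9a2, the range of each gene overlapped that of the next. The lowest were Col6a5 at 0.0535 and Col10a1, the collagen of hypertrophic cartilage, at 0.0542 CPM per kb. With the longest transcript as the length instead of all exons, 9 of these top 10 genes were shared, with Col2a1 at rank 2, while Col1a2 moved from rank 32 to rank 21.

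**Figure D1:**
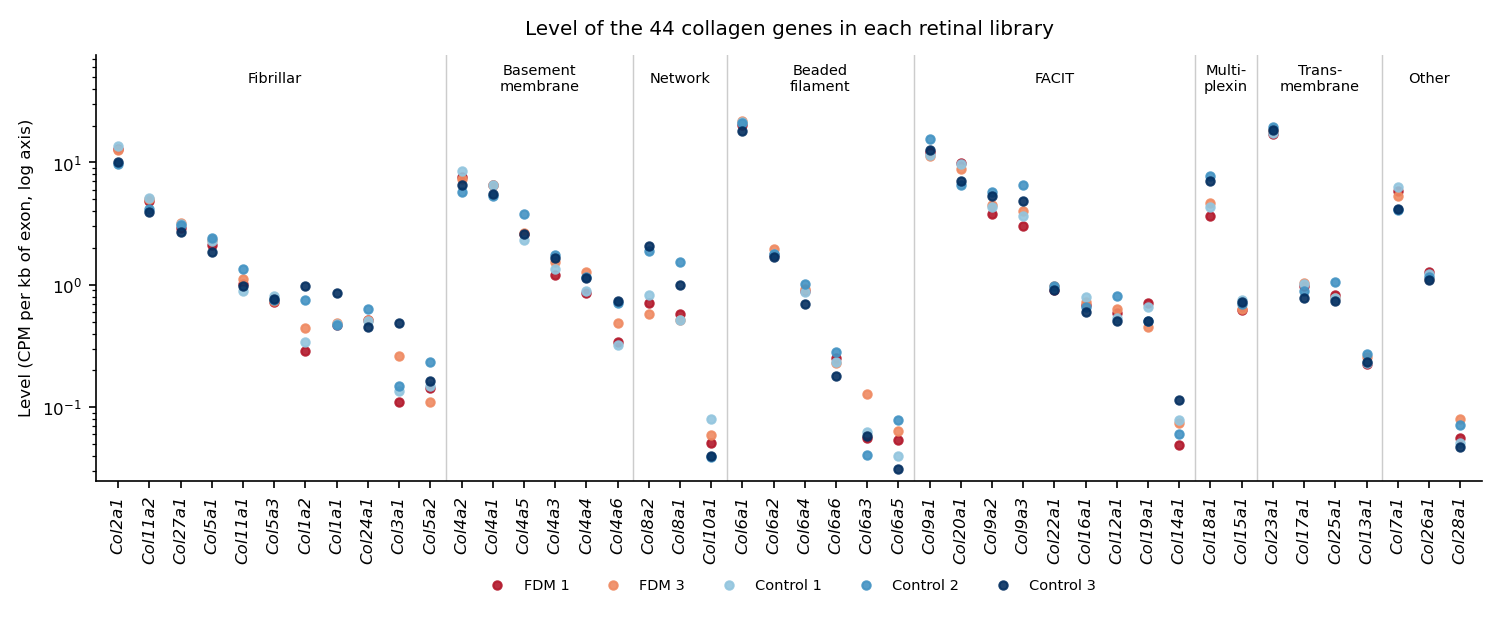
Level of each of the 44 collagen genes in CPM per kb of exon (log axis), 1 point per library, with genes grouped by class and ordered by mean level. Col6a1, Col23a1, Col9a1 and Col2a1 lead, and the points of Col8a2, Col8a1 and Col18a1 split into Control 2 and Control 3 above the other 3 libraries.

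Of the 44 genes, 43 had more than 10 counts in at least 2 libraries and were tested. Col10a1 was not tested, with 7 counts in FDM 1 and 9 in FDM 3, against 10, 7 and 6 in Controls 1 to 3. In edgeR's quasi-likelihood test, 2 of the 43 collagen genes had an unadjusted p under 0.05, Col8a2 and Col18a1, both lower in FDM retinas, beside 1.61% of all 17432 genes tested and 1.16% in the lower direction. At 2 genes, a share of 4.65% rests on too few members to be set apart from that background. No collagen gene (0) passed after Benjamini-Hochberg adjustment over all genes tested, and neither did any other gene (0 of 17432). The smallest adjusted p of a collagen in edgeR was 1.0. DESeq2's Wald test also gave 0 collagens after adjustment, beside 3 of all 17432 genes. At the unadjusted threshold it gave 4 collagens, the 2 above with Col8a1 and Col9a3, beside 0.987% of all genes (0.780% lower). By sign alone, 20 collagens were higher and 23 lower in FDM retinas, beside 55.6% of all genes lower, with a median log2 fold change of -0.01, equal to that of all genes tested. The FDM and control libraries did not overlap for 4 collagens (Col8a2, Col5a2, Col5a3 and Col15a1), beside 10.6% of all genes tested. All 4 were lower in FDM, beside 6.67% of all genes in that direction. Within a group each library came from a different mouse. With 2 libraries against 3, edgeR estimated the spread of a gene from these 5 samples together with the trend over all genes. Without a block, the fit took the eyes of a mouse as independent.

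With the mouse as a block, 8 collagens had an unadjusted p under 0.05 in edgeR, beside 7.23% of all genes. After adjustment 0 collagens passed, beside 54 of all 17432 genes. Col1a2, Col3a1, Col8a2, Col9a2, Col9a3 and Col18a1 were lower, beside 3.67% of all genes in that direction. Col11a1 and Col12a1 were higher, beside 3.57%. This fit leaves 1 residual degree of freedom.

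**Figure D2:**
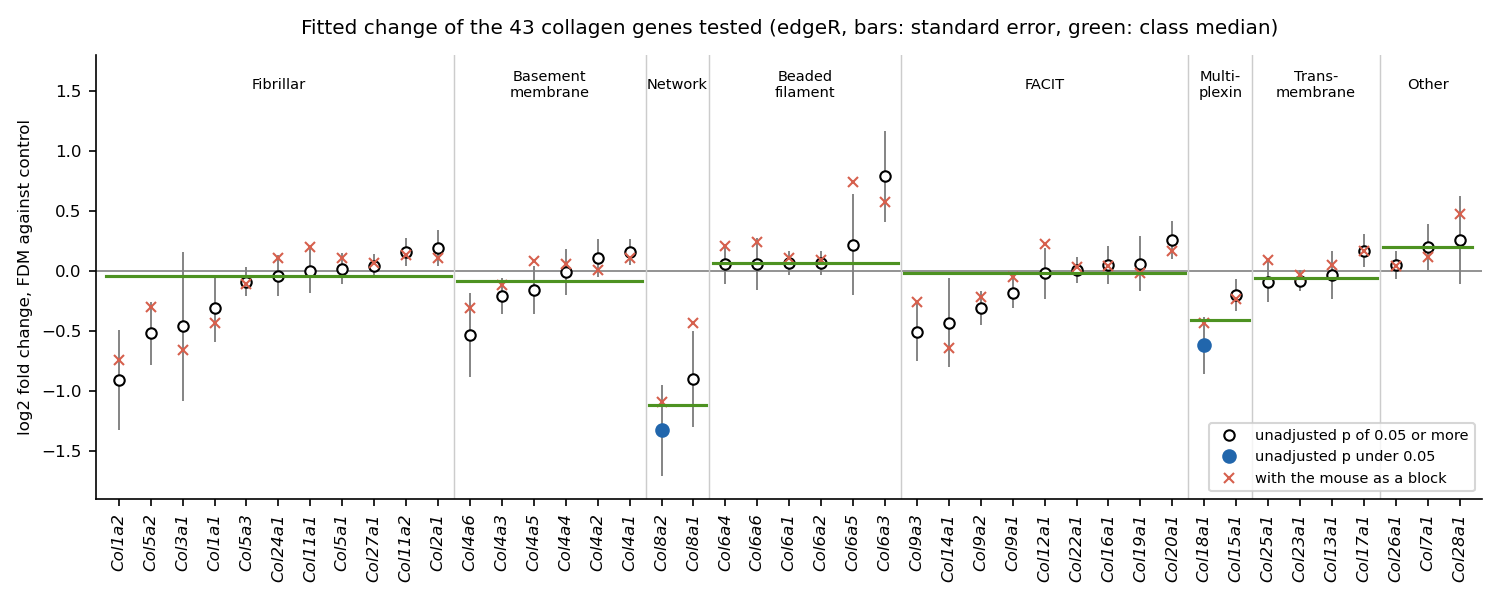
Fitted log2 fold change of FDM against control for the 43 collagen genes tested (circles, with the standard error as bars), the value with the mouse as a block (crosses) and the median of each class (green lines). The 2 filled circles, Col8a2 at -1.33 and Col18a1 at -0.62, are the genes with an unadjusted p under 0.05, and most other members lie near 0.

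The short-chain network collagens showed the greatest difference of any class, with a median log2 fold change of -1.11 over the 2 genes tested, while the multiplexins had -0.41 and the other classes -0.08 to 0.20. Col8a1 and Col8a2 encode the alpha 1 and alpha 2 chains of type VIII collagen, which forms hexagonal lattices in Descemet's membrane of the cornea and occurs in vessel walls and Bruch's membrane. Col8a2 (ENSMUSG00000056174, chromosome 4 of GRCm38, 126286793 to 126314330, plus strand) had 139 counts in FDM 1 and 124 in FDM 3, against 148, 488 and 447 in Controls 1 to 3. These correspond to 3.21, 2.58, 3.71, 8.56 and 9.41 CPM in the same order. Both FDM libraries lay below all 3 controls, but Control 1 stood close to the FDM libraries and far below the other controls. The log2 fold change was -1.33 with a standard error (SE) of 0.38 (unadjusted p = 0.00956, adjusted p = 1.0 in edgeR), a level in FDM 0.399 times that of controls. Leaving out each library in turn kept it between -1.63 and -1.09, with an unadjusted p of at most 0.0415. Within mice, as paired by number, the log2 difference was -0.21 in the mouse of FDM 1 and -1.87 in that of FDM 3. Adjusted p ran from 8.80e-04 to 1.0 over the 16 alternatives and was under 0.05 in 2 of them. These were the block set by the title numbers (beside 0.734% of all genes) and, in edgeR, the fit without Control 1 (adjusted p = 0.0243, beside 0.0692% of all genes). The title numbers pair FDM 3 with Control 2, not Control 3, and leave Control 3 unpaired. Without Control 2 and Control 3, the highest libraries for this gene, the log2 fold change was -0.34 in edgeR. They were left out after the data had been seen, so a smaller change was bound to follow, and a single control remained. Control 2 and Control 3 were also the libraries with high RPE markers, and the part of these markers was not tested.

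Col8a1 (ENSMUSG00000068196, chromosome 16, 57624258 to 57754737, minus strand) showed 4.54 CPM in FDM 1 and 4.03 in FDM 3, against 4.01, 12.0 and 7.89 in Controls 1 to 3. Again Control 2 and Control 3 were high, and Control 1 lay just under both FDM libraries, so that the groups overlapped. Its log2 fold change of -0.90 (SE 0.40, unadjusted p = 0.0577 in edgeR) did not pass, while DESeq2 gave an unadjusted p of 0.0150. Without Control 2 and Control 3 the sign turned, to 0.12. The counts of Col8a1 per count of Col8a2 ran from 0.839 in Control 3 to 1.56 in FDM 3. The ratio was lower in Control 3 and Control 1 than in the other 3 libraries. The summed network class was 7.91 CPM in FDM 1 and 6.80 in FDM 3, against 7.96, 20.6 and 17.4 in Controls 1 to 3.

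The promoter windows of both type VIII genes are shown because both genes were highest in Control 2 and Control 3. They run from 250 bases before to 50 bases after the RefSeq start on GRCm38.p6, and capitals mark the letters GGGCGG on either strand, a GC box.
Col8a2, chr4:126286544-126286843, plus strand: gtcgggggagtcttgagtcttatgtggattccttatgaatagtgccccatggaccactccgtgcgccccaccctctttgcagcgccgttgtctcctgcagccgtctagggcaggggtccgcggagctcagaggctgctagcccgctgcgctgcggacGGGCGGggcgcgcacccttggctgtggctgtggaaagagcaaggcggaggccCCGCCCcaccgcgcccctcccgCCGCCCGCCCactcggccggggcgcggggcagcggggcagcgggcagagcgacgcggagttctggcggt
Col8a1, chr16:57754688-57754987, minus strand: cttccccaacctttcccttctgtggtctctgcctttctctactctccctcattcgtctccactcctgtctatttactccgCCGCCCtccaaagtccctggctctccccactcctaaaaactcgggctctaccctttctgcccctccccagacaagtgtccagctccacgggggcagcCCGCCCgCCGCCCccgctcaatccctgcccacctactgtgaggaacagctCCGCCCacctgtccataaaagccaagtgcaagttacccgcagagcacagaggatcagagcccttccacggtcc
Each window holds 4 matches of GGGCGG, of which 2 overlap in Col8a2, and neither holds, on either strand, the letters TATAAA of a TATA box, those of a CCAAT box or the AP-1 motif TGANTCA. A window was found for 35 collagen genes, and 62.9% of them hold GGGCGG, against 35.9% of the 27025 windows of all genes. TATAAA occurs in 14.3% against 14.2%, CCAAT in 34.3% against 37.9% and TGANTCA in 2.86% against 7.93%. The windows of Col8a2 and Col8a1 are 71.7% and 60.3% G or C, against a median of 52.7% for all genes, and GGGCGG itself consists of G and C alone.

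**Figure D3:**
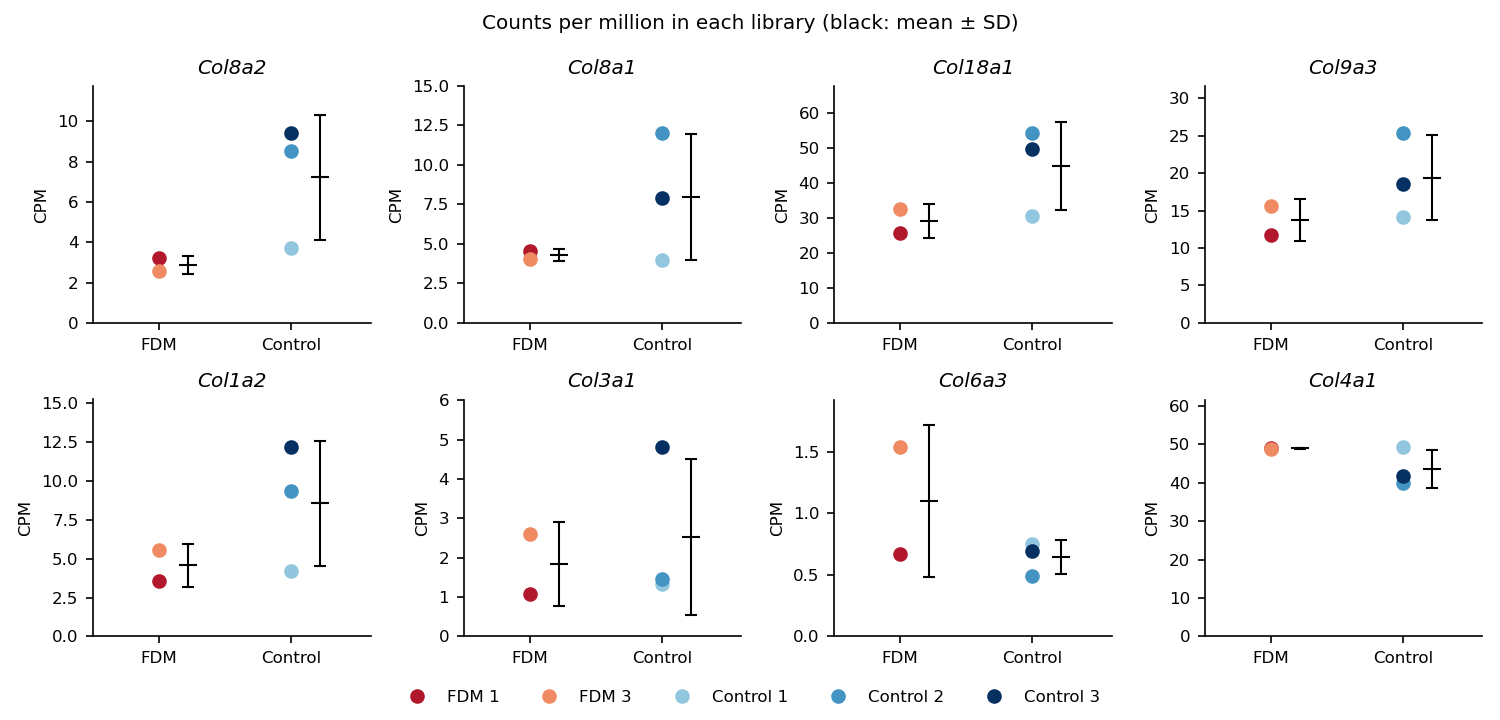
CPM of 8 collagen genes in each library (points, FDM at left and control at right), with the group mean and SD in black (n = 2 and n = 3). Control 1 sits with the FDM libraries for Col8a2, Col8a1, Col18a1 and Col1a2, Control 3 is highest for Col3a1, followed by FDM 3, and FDM 3 stands alone for Col6a3.

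The multiplexins Col15a1 and Col18a1 sit at the outer face of basement membranes. Col18a1, whose protein releases endostatin from its end and whose loss in people causes Knobloch syndrome with high myopia and vitreoretinal degeneration, is on chromosome 10 (ENSMUSG00000001435, 77052178 to 77166548, minus strand). It had 25.8 CPM in FDM 1 and 32.7 in FDM 3, against 30.5, 54.3 and 49.8 in Controls 1 to 3. FDM 3 was above Control 1, so the groups overlapped, and the gap lay between Control 2 and Control 3 and the other 3 libraries. Its fitted log2 fold change of -0.62 had a standard error of 0.24 (unadjusted p = 0.0350, adjusted p = 1.0 in edgeR). Fitting the mouse as a block gave -0.43 (unadjusted p = 7.44e-04, adjusted p = 0.160 in edgeR, where adjusted p over all alternatives ran from 0.112 to 1.0). The call was lost without FDM 1 (unadjusted p = 0.162 in edgeR), without Control 2 (unadjusted p = 0.0934) and without Control 3 (unadjusted p = 0.114). It was also lost in limma (log2 fold change -0.54, unadjusted p = 0.111 and 0.115 at pseudocounts of 1 and 0.1), where Col6a3 passed in its place. Without both Control 2 and Control 3 the log2 fold change was -0.04.

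Col15a1 was steadier, with 3.97 CPM in FDM 1 and 4.05 in FDM 3, against 4.78, 4.44 and 4.63 in Controls 1 to 3. Both FDM libraries lay below every control, by a small margin, and the log2 fold change of -0.20 (SE 0.13) had an unadjusted p of 0.153 in edgeR. With the authors' normalization factors as offsets the sign turned, to 0.20, so no direction is given for this gene.

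The basement-membrane class consists of the 6 type IV chains. Col4a1 and Col4a2 encode the chains found in nearly every basement membrane, vessels included. Col4a1 (ENSMUSG00000031502, chromosome 8, 11198423 to 11312826, minus strand) had 48.9 CPM in FDM 1 and 48.8 in FDM 3, against 49.3, 39.9 and 41.6 in Controls 1 to 3. Here Control 1 and the FDM libraries were the high ones, the reverse of type VIII. Its log2 fold change was 0.16 (SE 0.11, unadjusted p = 0.169 in edgeR). Col4a2 (ENSMUSG00000031503, chromosome 8, 11312805 to 11449287, plus strand) had 50.6, 48.7, 56.6, 38.2 and 43.0 CPM for FDM 1, FDM 3 and Controls 1 to 3. Its log2 fold change of 0.11 (unadjusted p = 0.495 in edgeR) became -0.17 without Control 2 and Control 3.

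Col4a1 and Col4a2 lie head to head, and their annotated exons overlap by 22 bases at the start, where reads counted without strand cannot be assigned. Their windows are shown because the windows overlap. The start sites are 21 bases apart, and the 78 bases common to both windows are in capitals, each on the strand of its gene.
Col4a1, chr8:11312777-11313076, minus strand: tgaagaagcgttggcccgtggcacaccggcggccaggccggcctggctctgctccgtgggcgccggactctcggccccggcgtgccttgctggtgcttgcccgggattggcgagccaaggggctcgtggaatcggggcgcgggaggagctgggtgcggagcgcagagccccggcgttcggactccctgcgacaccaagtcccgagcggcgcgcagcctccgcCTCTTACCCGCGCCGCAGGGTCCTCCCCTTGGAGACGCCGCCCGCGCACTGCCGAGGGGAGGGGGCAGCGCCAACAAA
Col4a2, chr8:11312555-11312854, plus strand: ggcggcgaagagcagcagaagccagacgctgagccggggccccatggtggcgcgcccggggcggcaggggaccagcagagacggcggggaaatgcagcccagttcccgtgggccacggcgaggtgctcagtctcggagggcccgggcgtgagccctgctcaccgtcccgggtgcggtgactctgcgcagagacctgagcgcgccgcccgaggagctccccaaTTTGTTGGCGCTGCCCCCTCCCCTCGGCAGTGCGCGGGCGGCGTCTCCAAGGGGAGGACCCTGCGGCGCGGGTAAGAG
The counts of Col4a1 per count of Col4a2 stayed between 0.872 and 1.05 over the 5 libraries. The other type IV genes are paired in the same way, Col4a4 with Col4a3 on chromosome 1, with 71 bases between them, and Col4a6 with Col4a5 on chromosome X, with 1308 bases between them. Counts of Col4a4 per count of Col4a3 ran from 0.704 to 0.878, while those of Col4a6 per count of Col4a5 ran from 0.156 to 0.339, a wider spread of 2.17 times.

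The chains encoded by Col4a3, Col4a4 and Col4a5 make up the network of the kidney glomerulus and of some ocular basement membranes, and their loss causes Alport syndrome. Col4a3 had 12.1 CPM in FDM 1 and 15.3 in FDM 3, against 13.4, 17.6 and 16.4 in Controls 1 to 3, and 5.65% of its exon length overlaps an antisense gene. Col4a4 had 9.06, 13.5, 9.46, 12.4 and 12.1 CPM in the same order. Col4a5 had 17.5, 17.7, 15.7, 25.7 and 17.5 CPM. Of these, Col4a3 was highest in Control 2 and Control 3, Col4a4 in FDM 3 and Col4a5 in Control 2, and the groups overlapped for each. Their log2 fold changes were -0.21, -0.01 and -0.16 (unadjusted p = 0.221, 0.970 and 0.444 in edgeR). Col4a6, the partner of Col4a5 in smooth muscle and the lens capsule, had 2.72 CPM in FDM 1 and 3.87 in FDM 3, against 2.58, 5.66 and 5.94 in Controls 1 to 3. Like type VIII, it was high in Control 2 and Control 3, with a log2 fold change of -0.53 (SE 0.35, unadjusted p = 0.181 in edgeR).

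Per kilobase, Col4a1 and Col4a2 made up 73.9% of type IV transcripts in FDM 1 and 70.1% in FDM 3, against 75.6%, 59.8% and 66.3% in Controls 1 to 3. Control 2 and Control 3 had the lowest shares.

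Among the 11 fibrillar collagens, cartilage and vitreous types led. Col2a1 (ENSMUSG00000022483, chromosome 15, 97975602 to 98004695, minus strand) had 119 CPM in FDM 1 and 117 in FDM 3, against 126, 89.2 and 93.8 in Controls 1 to 3. As with Col4a1, Control 2 and Control 3 were the low libraries. The log2 fold change of 0.19 (SE 0.15, unadjusted p = 0.242 in edgeR) turned to -0.08 without them. Col11a2, a type XI chain that copolymerizes with type II, had 33.1, 34.5, 35.1, 28.4 and 27.3 CPM for FDM 1, FDM 3 and Controls 1 to 3. Col27a1, a fibrillar chain of cartilage, had 38.1, 41.5, 40.9, 40.5 and 35.1 CPM. Col2a1 alone held 40.8% to 49.7% of the fibrillar level per kilobase, and Col2a1, Col11a2 and Col27a1 together held 71.4% to 79.7%. Col11a1, the other main type XI chain, had a log2 fold change of -0.00 without the block and 0.20 with it (unadjusted p = 0.0277 in edgeR).

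The chains of connective tissue were low and uneven. Type I collagen, the fibril protein of sclera, tendon and bone, joins chains of Col1a1 and Col1a2. Col1a2 (ENSMUSG00000029661, chromosome 6, 4504814 to 4541544, plus strand) had 155 counts in FDM 1 and 268 in FDM 3, against 169, 532 and 578 in Controls 1 to 3. Control 1 again lay among the FDM libraries. Its log2 fold change was -0.91 (SE 0.42, unadjusted p = 0.0637 in edgeR). Fitting the mouse as a block gave -0.74, which passed (unadjusted p = 0.00352, adjusted p = 0.395 in edgeR, where adjusted p over all alternatives ran from 0.295 to 1.0). Without Control 2 and Control 3 it was 0.14.

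Col1a1 did not follow its partner. It had 135 counts in FDM 1 and 155 in FDM 3, against 125, 175 and 267 in Controls 1 to 3, and in CPM only Control 3, at 5.62, stood apart from the other 4 libraries, at 3.07 to 3.22. The log2 fold change was -0.31 (SE 0.28, unadjusted p = 0.300 in edgeR). Counts of Col1a1 per count of Col1a2 were 0.871 in FDM 1 and 0.578 in FDM 3, against 0.740, 0.329 and 0.462 in Controls 1 to 3. The ratio was lowest in Control 2 and Control 3.

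Col3a1, the type III chain of vessel walls and skin, had 47 counts in FDM 1 and 125 in FDM 3, against 53, 83 and 229 in Controls 1 to 3. Both libraries with the number 3 were the high ones. The log2 fold change was -0.46 (SE 0.62, unadjusted p = 0.487 in edgeR), and with the block -0.66 (unadjusted p = 0.0116 in edgeR, and adjusted p from 0.575 to 1.0 over all alternatives). Without Control 3, the library with high skeletal muscle markers, the log2 fold change was 0.41. The summed share of Col1a1, Col1a2 and Col3a1 in the fibrillar level per kilobase was 3.36% in FDM 1 and 4.48% in FDM 3, against 3.46%, 5.78% and 9.96% in Controls 1 to 3.

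Type V collagen starts and limits type I fibrils. Col5a2 had 60 counts in FDM 1 and 51 in FDM 3, against 57, 127 and 74 in Controls 1 to 3, with no overlap in CPM (unadjusted p = 0.0867 in edgeR). Col5a3 had 4.94 and 4.99 CPM in FDM 1 and FDM 3 against 5.16 to 5.48 in controls, also without overlap and with an unadjusted p of 0.478 in edgeR. Col5a1 had 15.8 to 20.5 CPM, lowest in Control 3 and highest in Control 2, and the groups overlapped. Col24a1, a minor fibrillar chain, had 3.97 and 3.95 CPM in the FDM libraries and 3.86, 4.84 and 3.47 in Controls 1 to 3, also with overlap.

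The changes of fibrillar and basement-membrane collagens between FDM and control retinas were compared by description only, and the difference between the classes was not tested. Of the fibrillar genes, 4 were higher and 7 lower, with a median log2 fold change of -0.04 and a range of -0.91 to 0.19. Of the type IV genes, 2 were higher and 4 lower, with a median of -0.08 and a range of -0.53 to 0.16. In neither class did a gene have an unadjusted p under 0.05 in edgeR (0 of 11 and 0 of 6), beside 1.61% of all genes tested. With so few members, these counts do not set either class apart from that share. The smallest unadjusted p in edgeR was 0.0637 for the fibrillar and 0.169 for the type IV genes. The type IV median minus the fibrillar one was -0.05. The medians changed sign in some settings, among them to 0.07 for the fibrillar genes with the mouse as a block and to 0.12 for the type IV genes without Control 2 and Control 3. Summed per library, fibrillar genes had 239 CPM in FDM 1 and 248 in FDM 3, against 253, 222 and 217 in Controls 1 to 3. The type IV genes had 141, 148, 147, 139 and 137 CPM in the same order. The FDM libraries lay within the range of the controls for the fibrillar sum, while FDM 3 topped the type IV sum by a small margin. The type IV level per unit of fibrillar level, both per kilobase, was 0.739 in FDM 1 and 0.738 in FDM 3, against 0.728, 0.786 and 0.780 in Controls 1 to 3. Both FDM libraries lay between Control 1 and the other controls, so the difference of the group means (0.738 against 0.765 ± 0.0315, SD, n = 3) was smaller than the spread of the controls.

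The FACIT collagens (fibril-associated collagens with interrupted triple helices) coat fibrils without forming any. Type IX collagen, which covers type II fibrils in the vitreous and is made by the ciliary epithelium, had all its chains highest in Control 2. Col9a1 had 61.2 CPM in FDM 1 and 57.3 in FDM 3, against 58.6, 78.2 and 64.2 in Controls 1 to 3. Col9a2 had 11.8, 14.0, 13.5, 17.8 and 16.5 CPM in the same order. Col9a3 had 11.7, 15.6, 14.1, 25.3 and 18.6 CPM. For all 3 chains Control 2 and Control 3 were above the other libraries, and Control 1 lay within the FDM range. The log2 fold changes were -0.18 for Col9a1, -0.31 for Col9a2 and -0.51 for Col9a3 (unadjusted p = 0.211, 0.0696 and 0.0758 in edgeR). With the mouse as a block, Col9a2 at -0.22 and Col9a3 at -0.26 passed (unadjusted p = 0.0156 and 0.00421 in edgeR), and Col9a1 did not (unadjusted p = 0.499). The exons of Col9a3 overlap the antisense gene Tcfl5 over 6.07% of their length.

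Col2a1 is the partner of type IX in the vitreous, yet its libraries stood in the opposite order, with Control 2 and Control 3 lowest. Col20a1, a FACIT chain little studied in mammals, was likewise lowest in Control 2 and Control 3, with 50.5 CPM in FDM 1 and 45.8 in FDM 3, against 49.9, 33.9 and 36.6 in Controls 1 to 3. Col12a1, a type XII chain on type I fibrils, had 8.92, 9.71, 8.11, 12.3 and 7.77 CPM. Its log2 fold change was -0.02, or 0.23 with the block (unadjusted p = 0.0469 in edgeR), and it turned positive under 7 of 16 alternatives. The remaining FACIT genes, Col14a1, Col16a1, Col19a1 and Col22a1, had group ranges that overlapped.

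Type VI collagen forms beaded microfibrils next to basement membranes, and its assembly needs chains of 3 genes, classically Col6a1, Col6a2 and Col6a3. Col6a1 held 86.8% to 87.8% of the type VI level per kilobase in every library, with 89.4 CPM in FDM 1 and 96.4 in FDM 3, against 94.3, 92.7 and 78.7 in Controls 1 to 3. Col6a2 had 14.5, 16.3, 14.9, 15.0 and 14.1 CPM in the same order. Counts of Col6a1 per count of Col6a2 stayed between 5.57 and 6.33, so these chains kept their proportion, as did Col4a1 and Col4a2. Col6a4, a chain that can take the place of Col6a3, had 7.61, 7.82, 7.49, 8.72 and 5.96 CPM. Control 2 was the highest library for Col6a4 and Control 3 the lowest, as for Col6a6, which had 2.33, 2.10, 2.13, 2.60 and 1.64 CPM. The log2 fold changes of the 6 type VI genes ran from 0.06 to 0.79 with a median of 0.07. At an unadjusted p under 0.05 in edgeR, beside 1.61% of all genes tested, 0 of these type VI genes passed. With each library left out in turn, the lowest value was at or under 0 for all of them except Col6a3, and no direction is given for them.

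Col6a3 (ENSMUSG00000048126, chromosome 1, 90765923 to 90843971, minus strand) was far lower, with 29 counts in FDM 1 and 74 in FDM 3, against 30, 28 and 33 in Controls 1 to 3. Only FDM 3, the library with lens markers, stood apart. The log2 fold change was 0.79 (SE 0.38, unadjusted p = 0.0754 in edgeR), and 0.06 without FDM 3. With the authors' factors as offsets it was 1.73 (unadjusted p = 0.00792 in edgeR, with an adjusted p of 0.722 to 1.0 over all alternatives). Relative to the library, these factors for Col6a3 were 0.820 in FDM 1 and 0.602 in FDM 3, against 1.5, 0.763 and 1.77 in Controls 1 to 3, so they differed between libraries of the same group by more than the counts did among the other 4 libraries. Over all collagens, the authors' factors moved the log2 fold change by more than 0.2 for 5 of 43 genes (Col6a3, Col3a1, Col15a1, Col5a1 and Col1a2), beside 3.18% of all genes tested, and 6 collagens changed sign, leaving aside Col11a1 at -0.00.

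Among the transmembrane collagens, which are anchored in the cell surface, Col23a1 had 97.8 CPM in FDM 1 and 103 in FDM 3, against 99.7, 112 and 106 in Controls 1 to 3. Col17a1, a component of hemidesmosomes, had 5.86, 6.24, 6.13, 5.31 and 4.74 CPM in the same order. Col25a1, a neuronal collagen first found in amyloid plaques, had 10.8, 10.1, 10.1, 13.7 and 9.49 CPM. Groups overlapped for the 4 genes of the class, Col13a1 included, and the smallest unadjusted p was 0.287 in edgeR. Col7a1, which forms the anchoring fibrils of epithelia, had 59.8 CPM in FDM 1 and 55.0 in FDM 3, against 64.5, 42 and 43 in Controls 1 to 3, the order seen for Col2a1. Col26a1 had 10.5 CPM in FDM 1 and 9.06 in FDM 3, against 10.1, 9.40 and 8.88 in Controls 1 to 3. Col28a1 had 0.277, 0.395, 0.250, 0.351 and 0.232 CPM in the same order. The groups overlapped for all 3 of these genes.

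Across all 44 collagens, Control 2 was the highest library for 18 genes, Control 1 for 9, FDM 3 for 8, Control 3 for 6 and FDM 1 for 3. Of all genes tested, 31.4% were highest in Control 2, 27.7% in Control 1, 9.03% in FDM 3, 20.2% in Control 3 and 11.6% in FDM 1. Control 2 and Control 3 were both above the other 3 libraries for 11 of the 44 (Col1a2, Col4a3, Col4a6, Col5a2, Col8a1, Col8a2, Col9a1, Col9a2, Col9a3, Col18a1 and Col23a1), beside 15.3% of all genes tested. RPE markers were also highest in Control 2 and Control 3, and the part of these, of lens and of muscle markers in the collagen values was not tested. Among them Rpe65 had 5.49 CPM in FDM 1 and 4.51 in FDM 3, against 5.36, 27.9 and 23.6 in Controls 1 to 3. All 12 RPE markers had a negative sign, and in edgeR the unadjusted p was under 0.05 for 7. Of the fibroblast and sclera markers, 8 were tested and all had a negative sign, from -2.11 for Fbln1 to -0.00 for Prelp. In edgeR 1 of them was called, Fmod. For both lists the share over all genes was 55.6% lower by sign and 1.16% called lower. Of the 10 fibroblast and sclera markers, only 4 were higher in both Control 2 and Control 3 than in each other library. Endothelial markers (323 to 371 CPM), pericyte and smooth muscle markers (104 to 114), astrocyte markers (245 to 288), corneal endothelium and anterior segment markers (188 to 214) and blood markers (32.9 to 47.6) varied less. In each of these lists 0 were called at an unadjusted p under 0.05 in edgeR, beside 1.61% of all genes tested.

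**Figure D4:**
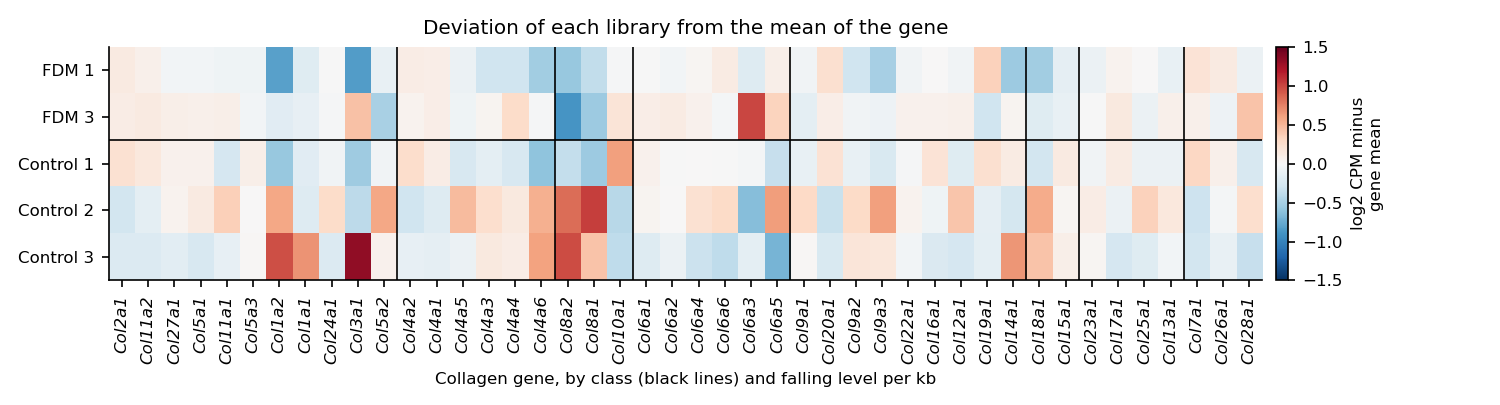
Deviation of each library's log2 CPM from the mean of the gene, for the 44 collagen genes ordered by class (red high, blue low). Col8a2, Col8a1, Col18a1, Col1a2 and Col4a6 are red in Control 2 and Control 3 and blue or pale in Control 1, FDM 1 and FDM 3, and Col6a3 is red in FDM 3 alone.

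When Control 1 was left out, so that Control 2 and Control 3 alone stood for the controls, 14 collagens had an unadjusted p under 0.05 in edgeR, beside 5.45% of all genes in that fit. Of these, 8 were lower, beside 3.21% (Col1a2, Col4a6, Col5a2, Col8a1, Col8a2, Col9a2, Col9a3 and Col18a1) and 6 higher, beside 2.24% (Col2a1, Col4a1, Col4a2, Col7a1, Col11a2 and Col20a1). When Control 2 and Control 3 were left out together, which leaves a single control, 2 passed, Col4a2 lower and Col11a1 higher, beside 10.8% of all genes, and neither had been called with all libraries. Without FDM 3, the library with lens markers, 4 passed (Col1a2, Col8a2, Col9a3 and Col18a1, beside 1.15% of all genes), and without FDM 1 it was Col6a3 and Col8a2 (beside 0.981%). Col8a2 alone passed without Control 2 (beside 3.11%) and without Control 3 (beside 0.845%).

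**Figure D5:**
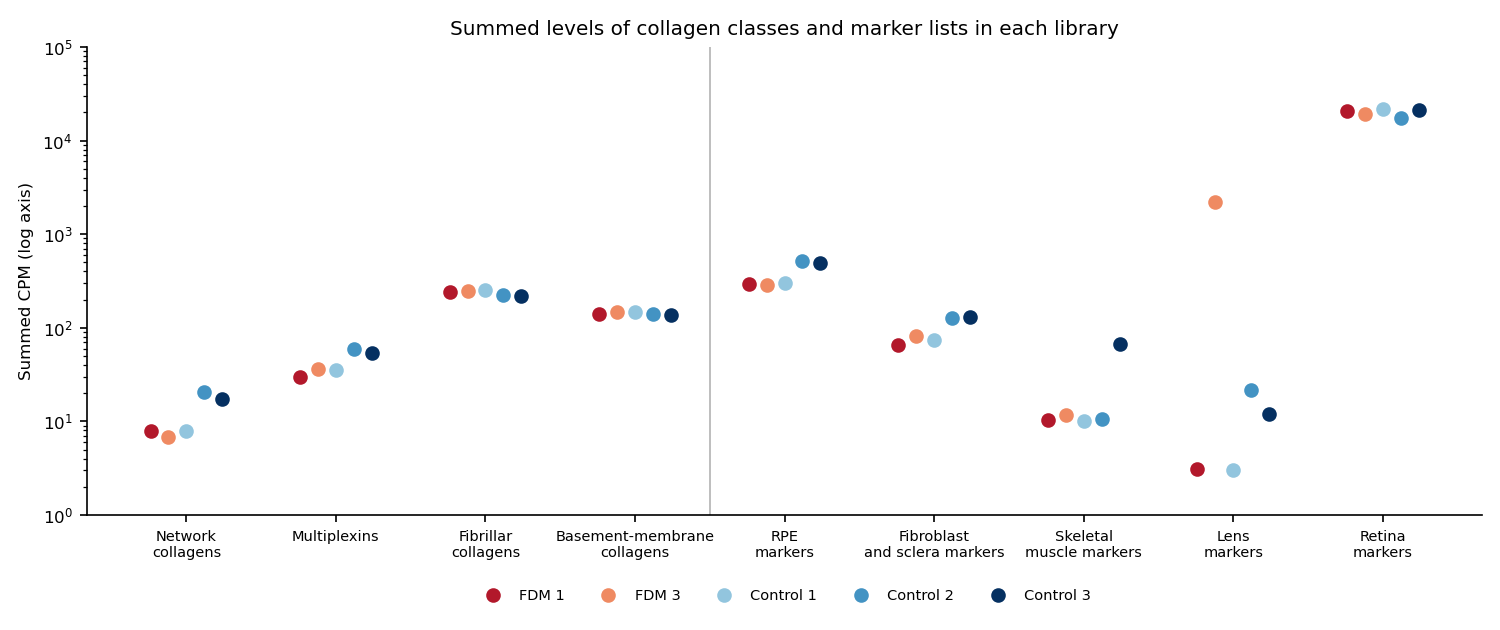
Summed CPM (log axis) of 4 collagen classes and 5 marker lists, 1 point per library. Network collagens and multiplexins have Control 2 and Control 3 on top, as the RPE and fibroblast markers do, while fibrillar and basement-membrane sums are nearly flat.

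Genes that act on collagens were read from 3 lists. Among 31 genes for collagen processing (hydroxylases, chaperones, propeptidases and cross-linking enzymes), 11 were higher and 20 lower, beside 55.6% of all genes lower by sign. The unadjusted p was under 0.05 in edgeR for 1, beside 1.61% of all genes called and 1.16% called lower. A single gene is too few to set the list apart from that background. The gene called was P4ha3, a catalytic subunit of prolyl 4-hydroxylase, with 38 counts in FDM 1 and 48 in FDM 3, against 61, 86 and 61 in Controls 1 to 3. Both FDM libraries had fewer CPM (0.876 and 0.998) than every control (1.28 to 1.53), with a log2 fold change of -0.62 ± 0.20 (SE, unadjusted p = 0.0185, adjusted p = 1.0 in edgeR). Unlike the type VIII genes, P4ha3 was not low in Control 1. Of 10 collagen receptors, 5 were higher and 5 lower. Itga2, the alpha subunit of a collagen-binding integrin, had 7, 10, 10, 32 and 19 counts for FDM 1, FDM 3 and Controls 1 to 3. It changed by -1.14 on the log2 scale (SE 0.45, unadjusted p = 0.0382 in edgeR, or 0.119 with the block). Only Control 2 and Control 3 exceeded 10 counts. The gene thus entered the test only through libraries in which it was high, and no conclusion is drawn from its call. Of 15 partners of collagen in basement membranes, such as laminin chains, nidogens, perlecan and agrin, 9 were higher and 6 lower, and 0 passed in edgeR at an unadjusted p under 0.05.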

How the data were processed

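Retinal poly-A RNA was sequenced by the authors. Per the labels, reads were trimmed with Trimmomatic 0.39 and estimated with Salmon 1.10.1 on GRCm38. The authors deposited these as estimated counts per gene, in whole numbers. The authors also deposited a DESeq2-normalized signal, from which the factor of each gene and library was recovered as counts divided by signal. Groups were taken from the sample titles, and for FDM 3 from the name of its count column, since no sample title carries that number. This column was taken to be the second FDM sample.

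From the deposited counts, the 17432 of 33636 genes that exceeded 10 counts in 2 or more libraries were compared with edgeR 4.0.16 in R 4.3.3 (TMM, quasi-likelihood test, no covariate). The threshold was an unadjusted p of 0.05, with Benjamini-Hochberg adjustment over all genes tested. Standard errors were derived from the F statistic. Levels per kilobase used all exons of a gene in GENCODE M21 on GRCm38, and promoters came from RefSeq (GRCm38.p6). Alternatives used DESeq2 1.42.0, limma 3.58.1 on the normalized signal (pseudocounts of 1 and 0.1), other scalings and filters on low counts, a block for the mouse, and fits without each library. Leaving out Control 2 and Control 3 together was chosen after the data had been seen. The members, their classes and all gene lists were chosen with earlier results of these data known.

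All collagens could be named, with values in each library where called, for types IV and VIII and for the 3 highest genes per kilobase of each class. Pathway genes were named where they passed the threshold. A marker gene of the retina list is not reported here, and the list's sums leave it out.

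The replicate numbers were taken to pair eyes of the same animal. Across genes, deviations from the group mean correlated at 0.231 for FDM 1 and Control 1, at 0.0907 for FDM 3 and Control 3 and at 0.155 for FDM 3 and Control 2. With 2 FDM libraries, the deviations of one are the opposite of those of the other. These values are therefore not independent and cannot decide the pairing. No 2 libraries held the same counts. The scripts were tested on simulated counts. No p-values of the authors' own comparisons were used.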

Additional observations from a re-analysis of the deposited data

How the results depend on the processing

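The number of collagens with an unadjusted p under 0.05, which was 2, became 6 without a count filter, 4 in DESeq2, 8 with the mouse as a block and 7 with the block set by the title numbers, and ran from 1 to 14 with each library left out. For all genes the number, 281, was 498 without a filter, 180 with over 50 counts in 2 libraries, 172 in DESeq2, 500 and 493 in limma, 1261 and 439 with the blocks and 1827 without Control 2 and Control 3, and ran from 146 to 946 with each library left out. The fibrillar median log2 fold change became 0.07 with the mouse as a block and ran from -0.08 to 0.08 with each library left out, and the type IV median became 0.12 without Control 2 and Control 3 (-0.25 to 0.04 with each library left out). The type IV minus fibrillar difference was 0.14 without Control 2 and Control 3 and ran from -0.17 to 0.00 with each library left out. The causes were not tested.

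For 20 genes the fold changes were followed over the settings, and 249 of the values kept their side of the threshold and their sign. Without a change of sign, 30 newly passed and 7 lost the threshold. A further 33 changed sign, and these were counted as such also where they newly passed, as Col12a1 did with the mouse as a block. Col11a1, at -0.00, was given no sign. Not every collagen that passed in some setting was among the 20, Col5a2 and Col7a1 for example. In limma the number of collagens called stayed at 2, but Col6a3 replaced Col18a1. With the authors' factors, Col12a1 became 0.06 and Col15a1 0.20, and in limma 0.07 and 0.22 at either pseudocount. With the mouse as a block, Col12a1 became 0.23, Col4a4 0.06 and Col4a5 0.08, and with the title-number block Col1a1 became 0.03, Col3a1 0.33 and Col4a4 0.03. With each library left out, Col12a1 ran from -0.13 to 0.24, Col3a1 from -1.22 to 0.41, Col4a4 from -0.32 to 0.25, Col4a5 from -0.30 to 0.09 and Col1a1 from -0.46 to 0.04. Without Control 2 and Control 3, the values were 0.22 for Col12a1, 0.04 for Col1a1, 0.14 for Col1a2, -0.08 for Col2a1, 0.50 for Col3a1, -0.17 for Col4a2, 0.05 for Col4a3, 0.28 for Col4a4, 0.18 for Col4a5, 0.38 for Col4a6, 0.12 for Col8a1 and 0.04 for Col9a1. With 2 FDM libraries, and 1 residual degree of freedom in the blocked fits, small differences in genes with few counts could not be resolved. Of the 8 collagens called with the mouse block, Col3a1, Col9a2, Col11a1 and Col12a1 did not pass with the block set by the title numbers, where Col5a2, Col6a3 and Col8a1 passed instead.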
